A study of Mus musculus with 2 samples.

Results

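Melanocytes of mouse dorsal skin were picked out by their pigment genes from 2 single-cell RNA libraries. A retained barcode counted as a melanocyte when it held counts of at least 2 of the 5 genes Dct, Tyrp1, Mlana, Pmel and Tyr, with a sum of at least 5, and no count of Ptprc, the pan-leukocyte gene CD45. Retained barcodes had at least 200 detected genes and at most 20% mitochondrial counts. The rule found 125 melanocytes among 18965 retained cells of both libraries. They were 72 cells in the library given Shi-Bi-Man together with imiquimod and 53 cells in the library given imiquimod without it. The mice were C57BL/6 animals of 7 weeks, dorsal skin was used for both libraries, and transcripts were read from the 3′ end. Both groups received imiquimod, an activator of Toll-like receptor 7 used to bring about skin inflammation that resembles psoriasis, and Shi-Bi-Man is the agent under study. No library of skin without imiquimod was analysed here. With 1 library in each group, differences have no replicate behind them and were not tested. Intervals are 95% intervals that cover counting error only, and whether the counts are collapsed molecules is not given in the sources used here.

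Melanocytes are pigment cells derived from the neural crest. In mouse dorsal skin they sit mainly in the hair follicle, where stem cells in the bulge supply the pigment-making cells of the bulb during hair growth. The transcription factor MITF, together with SOX10 and PAX3, drives their identity and turns on the melanin enzymes and melanosome proteins, and signals through the receptors KIT and EDNRB guide their survival, migration and growth.

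RefSeq promoters of melanin enzymes, which are genes of the rule, and of melanocyte channels and transporters are shown. The windows shown are those that held the word described below. Each line holds the 250 bases before the annotated start on build GRCm38.p6, on the strand of the gene. Capitals mark the letters CATGTG, an E-box form known as a core of MITF binding, or CACATG, which is the same word on the other strand. Of 23 melanocyte genes looked up, 15 had 19 windows in the table, since some have several starts, and 6 of the 19 windows held the word, against 4025 of all 32851 windows of that length (12.3%). Tyr is at chr7:87493513-87493762 on the minus strand, Tyrp1 at chr4:80833963-80834212 on the plus strand, and Dct at chr14:118052247-118052496 on the minus strand. Trpm1 is at chr7:64153585-64153834, Oca2 at chr7:56239509-56239758 and Slc24a5 at chr2:125067877-125068126, all on the plus strand.
Tyr: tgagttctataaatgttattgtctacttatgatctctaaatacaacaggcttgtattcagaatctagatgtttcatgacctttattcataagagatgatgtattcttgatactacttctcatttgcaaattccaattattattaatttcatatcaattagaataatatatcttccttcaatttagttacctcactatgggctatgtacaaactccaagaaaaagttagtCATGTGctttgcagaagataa
Tyrp1: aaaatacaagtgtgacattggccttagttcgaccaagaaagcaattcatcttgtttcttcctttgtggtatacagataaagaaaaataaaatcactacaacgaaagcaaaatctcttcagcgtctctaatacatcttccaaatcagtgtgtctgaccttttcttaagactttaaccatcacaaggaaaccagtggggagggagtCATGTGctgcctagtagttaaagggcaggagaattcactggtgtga
Dct: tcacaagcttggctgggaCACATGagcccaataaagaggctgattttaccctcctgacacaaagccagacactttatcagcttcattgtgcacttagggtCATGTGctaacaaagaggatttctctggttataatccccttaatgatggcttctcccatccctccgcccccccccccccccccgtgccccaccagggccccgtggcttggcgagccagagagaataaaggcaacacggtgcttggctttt
Trpm1: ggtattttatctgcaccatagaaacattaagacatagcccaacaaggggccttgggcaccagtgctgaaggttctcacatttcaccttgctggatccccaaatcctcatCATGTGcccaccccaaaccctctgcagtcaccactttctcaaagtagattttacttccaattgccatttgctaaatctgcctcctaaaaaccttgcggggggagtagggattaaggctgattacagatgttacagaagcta
Oca2: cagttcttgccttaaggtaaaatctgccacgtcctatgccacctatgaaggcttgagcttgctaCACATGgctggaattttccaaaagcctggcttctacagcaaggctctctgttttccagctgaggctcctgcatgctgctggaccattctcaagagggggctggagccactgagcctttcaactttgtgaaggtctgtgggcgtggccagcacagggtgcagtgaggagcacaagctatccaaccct
Slc24a5: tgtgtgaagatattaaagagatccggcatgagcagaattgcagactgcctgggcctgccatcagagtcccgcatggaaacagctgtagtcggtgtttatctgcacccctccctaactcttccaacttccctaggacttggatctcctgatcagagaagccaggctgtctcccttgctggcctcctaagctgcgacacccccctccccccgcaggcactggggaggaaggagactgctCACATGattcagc
The word begins 21 bases before the start of Tyr, 46 before Tyrp1, 141 before Trpm1, 186 before Oca2 and 13 before Slc24a5. Dct holds it at 232 and at 150 bases. A second Trpm1 window had no match to this word, and other E-box forms were not searched in any window. A match describes the letters and does not show that a factor binds there.

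The deposited matrices had 8054 barcodes with 20837259 counts (Shi-Bi-Man + imiquimod) and 11316 barcodes with 28920316 counts (imiquimod). Of these, 7946 and 11019 barcodes were retained. The libraries shared 49 barcode sequences, and none of them was a melanocyte in both. Melanocytes had a median of 2530.5 counts with Shi-Bi-Man + imiquimod and 1761 with imiquimod, against 1783 and 1616 in all other cells. Their summed counts were 293284 and 180169, and the median mitochondrial share was 5.06% and 5.58%. Ribosomal protein genes took 10.6% of melanocyte counts with Shi-Bi-Man + imiquimod and 15.6% with imiquimod, against 8.92% and 8.94% in other cells.

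Melanocytes made up 0.906% of retained cells with Shi-Bi-Man + imiquimod (Clopper-Pearson interval 0.710 to 1.14) and 0.481% with imiquimod (0.360 to 0.629). The log2 ratio of the shares was 0.91 (0.38 to 1.45). When every cell was first thinned to 500 counts, the rule found 57 cells (0.717%) with Shi-Bi-Man + imiquimod and 28 cells (0.254%) with imiquimod, a log2 ratio of 1.48. This ratio was larger than without thinning, and no cell was too shallow to be thinned. A share also moves with every other class recovered. T cells, taken as cells with at least 2 of 5 T cell receptor complex genes, numbered 382 with Shi-Bi-Man + imiquimod and 2282 with imiquimod, and their part in the melanocyte share was not tested. The absence of Ptprc left out 1 barcode with Shi-Bi-Man + imiquimod and 8 with imiquimod that otherwise met the rule.

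The 5 genes of the rule chose the cells, so their levels are a description. Dct, which encodes dopachrome tautomerase, was present in all 72 and all 53 cells, with 3226 counts (11000 CPM, which is counts per 1000000 of the summed melanocyte counts) with Shi-Bi-Man + imiquimod and 950 counts (5273 CPM) with imiquimod. Pmel, which forms the fibrils on which melanin is laid down, had 3972 and 1671 CPM. Tyrp1, the melanin enzyme beside Dct, had 2642 and 1071 CPM. Mlana, a melanosome protein also called MART-1, had 2782 and 566 CPM. Tyr, the enzyme of the first step of melanin synthesis, had 1292 CPM in 53 of 72 cells with Shi-Bi-Man + imiquimod and 327 CPM in 21 of 53 cells with imiquimod. The sum of the 5 genes per cell ran from 5 through a median of 39.5 to 454 counts with Shi-Bi-Man + imiquimod, and from 6 through 16 to 149 counts with imiquimod. The ranges overlapped from the lower end upward, and the cells above 149 counts were all from the Shi-Bi-Man + imiquimod library. All 5 genes were present in 38 cells (52.8%) with Shi-Bi-Man + imiquimod and in 15 cells (28.3%) with imiquimod.

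**Figure D1:**
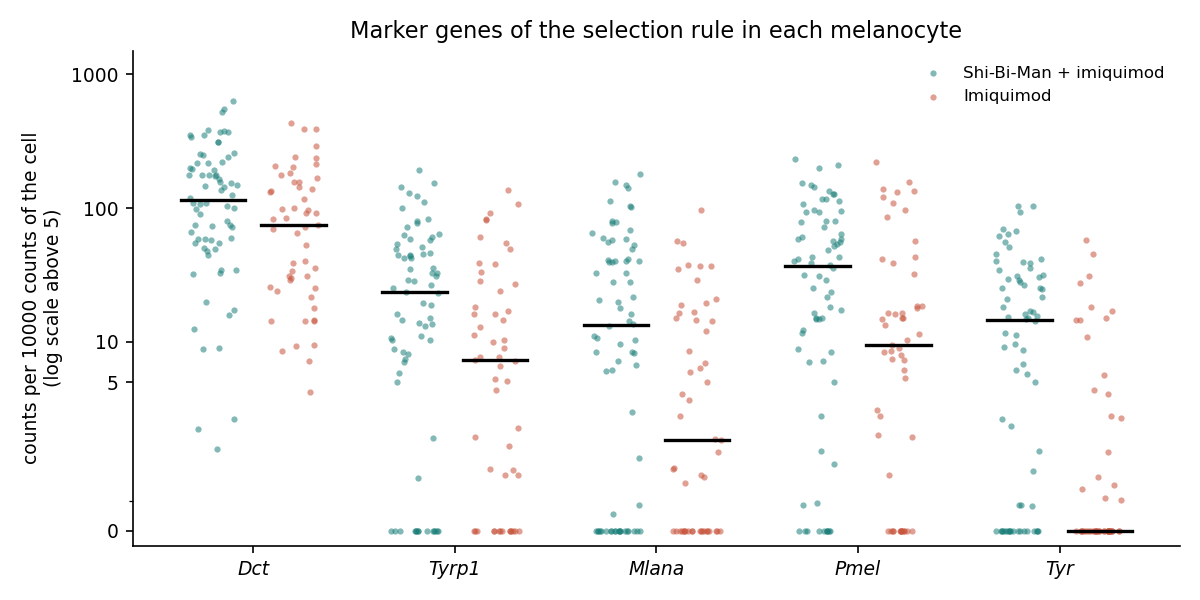
Counts of the 5 marker genes per 10000 counts of each melanocyte, on a scale that is linear up to 5 and logarithmic above, with 72 cells of the Shi-Bi-Man + imiquimod library (left of each pair) and 53 of the Imiquimod library. Points are cells and black lines are medians; the median of Tyr is 14.6 with Shi-Bi-Man + imiquimod and 0 with Imiquimod.

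Near the limit of the rule, 9 members with Shi-Bi-Man + imiquimod and 6 with imiquimod had a marker sum of 5 or 6, and 10 and 6 barcodes just outside had 2 markers but a sum of 3 or 4. In T cells, which should lack these genes, 4.45% of 382 cells with Shi-Bi-Man + imiquimod and 1.62% of 2282 cells with imiquimod held any count of the 5 markers, with at most 2 counts in a T cell of the Shi-Bi-Man + imiquimod library and at most 42 in a T cell of the imiquimod library. The T cells had median depths of 840.5 and 1128 counts.

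The name melanocyte was checked on genes outside the rule. Genes at least 2-fold higher in melanocytes than in all other cells in both libraries numbered 73 of 1326 with at least 20 melanocyte counts in each library (5.51%), and 35 (2.64%) were at least 2-fold lower in both. Because the cells were chosen by RNA, these are descriptions. Syt4, a synaptotagmin of vesicle release, had 317 CPM in melanocytes and 0.538 CPM in other cells with Shi-Bi-Man + imiquimod, and 128 and 0.248 CPM with imiquimod. Ptgds, a prostaglandin D2 synthase, had 1023 CPM in melanocytes and 1.61 CPM in other cells with Shi-Bi-Man + imiquimod, and 583 and 1.74 CPM with imiquimod. Mcoln3, a cation channel of endosomes, had 201 CPM in melanocytes and 0.342 CPM in other cells with Shi-Bi-Man + imiquimod, and 222 and 0.673 CPM with imiquimod. These genes were close to absent outside melanocytes in both libraries. Over the 15 genes with the largest ratios, the smaller log2 ratio of the 2 libraries ran from 2.02 for Ptn to 8.94 for Syt4. Not all mark melanocytes alone, since 123 of the 127 Ptn counts with imiquimod lay in barcodes with more keratinocyte than marker counts. Mitf, the master transcription factor of the lineage, had 317 CPM against 23.0 CPM in other cells with Shi-Bi-Man + imiquimod, and 178 against 25.3 CPM with imiquimod. Sox10, which melanocytes share with Schwann cells, had 109 CPM in melanocytes and 29.5 CPM in 41 Schwann cells with Shi-Bi-Man + imiquimod, and 27.8 CPM in melanocytes and 40.1 CPM in 68 Schwann cells with imiquimod. Those Sox10 levels rest on 32 and 2 counts with Shi-Bi-Man + imiquimod and on 5 and 3 counts with imiquimod.

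Many of these barcodes also carried keratinocyte RNA, and those with much of it were more frequent with imiquimod. Keratinocytes form the epidermis and the outer follicle, and the list of 10 keratinocyte genes holds Krt5, Krt14, Krt15, Krt10, Krt1, Krt17, Krtdap, Sfn, Dsp and Perp. At least 10 counts of the list were present in 28 of 72 melanocytes (38.9%) with Shi-Bi-Man + imiquimod and 24 of 53 (45.3%) with imiquimod, against 15.7% and 8.98% of T cells. Barcodes with more keratinocyte than marker counts, called keratin-high cells below, numbered 15 of 72 with Shi-Bi-Man + imiquimod and 23 of 53 with imiquimod. They were deep, with medians of 7494 and 6441 counts. They held 40.6% of all melanocyte counts with Shi-Bi-Man + imiquimod but 80.8% with imiquimod. In them the list reached 18599 and 15499 CPM, against 49360 and 31207 CPM in keratinocytes and 3393 and 3901 CPM in the remaining keratin-low melanocytes. Markers of the inner root sheath and hair matrix reached 10 counts in 5 melanocytes with Shi-Bi-Man + imiquimod and in 0 with imiquimod, fibroblast markers in 15 and 5, and myeloid markers in 0 and 4. The inner root sheath and hair matrix list also differed in other cells, with 228 CPM with Shi-Bi-Man + imiquimod and 17.0 CPM with imiquimod, and its part in the melanocyte results was not tested. No doublet caller was applied, and whether such a barcode held 1 cell or several was not tested. Most results below are also given in the keratin-low cells, which number 57 (174189 counts) with Shi-Bi-Man + imiquimod and 30 (34607 counts) with imiquimod. These are not free of other RNA. The fibroblast list had 1263 CPM in them with Shi-Bi-Man + imiquimod and 12801 CPM with imiquimod, where 1 cell held 265 of the 443 counts, and its part in the keratin-low values was not tested. A stricter set, called marker-clean cells, had under 10 counts of each of 10 lists of other cell types and held 42 cells (72827 counts) and 25 cells (19322 counts). In it the fibroblast list had 1263 and 880 CPM. Keratin-high barcodes differed between the libraries in the keratinocyte genes they held. Krt10 and Krt1, keratins of the upper epidermis, had 3543 and 1906 CPM there with Shi-Bi-Man + imiquimod, against 151 and 75.6 CPM with imiquimod, while Krt15 had 453 CPM against 1717 CPM.

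**Figure D2:**
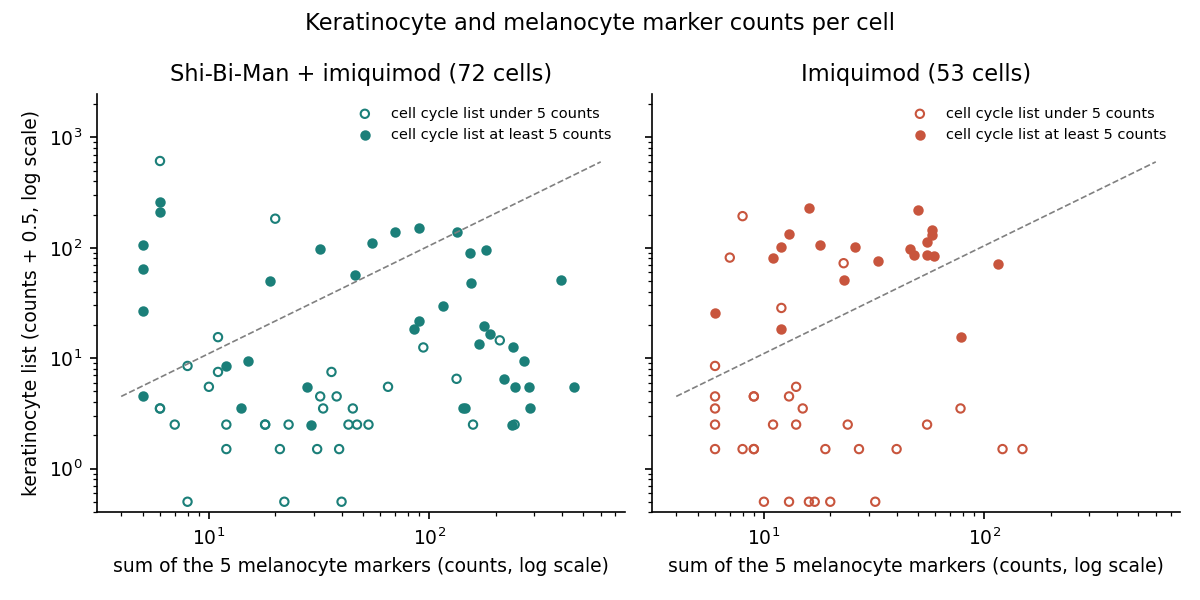
Counts of the keratinocyte list (with 0.5 added) against the sum of the 5 melanocyte markers in each melanocyte, both on log scales, for Shi-Bi-Man + imiquimod (left, 72 cells) and Imiquimod (right, 53 cells). Filled points have at least 5 counts of the cell cycle list, and the dashed line marks equal counts; 15 and 23 cells have more keratinocyte than marker counts.

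Summed over melanocytes, 4297 genes had at least 20 counts over both libraries. Of these, 1467 (34.1%) were at least 1.5-fold higher with Shi-Bi-Man + imiquimod and 653 (15.2%) at least 1.5-fold lower. The median log2 ratio over all 4297 genes was 0.26, against 0.01 for the same genes in other cells, so a list is best read against 0.26. Counts of higher and lower list members are likewise best read against 34.1% and 15.2%. Scaling by trimmed means brought the median to 0.08 with 1165 genes higher and 877 lower, and median-of-ratios scaling brought it to 0.02 with 1045 higher and 953 lower. In the keratin-low cells 2021 genes could be measured, of which 33.7% were higher, 18.9% lower and the median was 0.18. Counts of list members in keratin-low cells are best read against those shares. Of those 2021 genes, 72 had 0 counts with imiquimod. With these at the smallest fold that a floor of 3 counts over the group allows, 658 genes were higher in place of 682.

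The membrane proteins and transporters of the melanosome were higher with Shi-Bi-Man + imiquimod in summed melanocytes. Of 7 measured members, of 11 on the list, 6 were at least 1.5-fold higher and 0 lower, with a median log2 ratio of 2.12, or 2.10 with a gene at 0 set to its bound. In other cells the same members had a median of 0.47. Slc24a5, a potassium-dependent sodium-calcium exchanger needed for pigmentation, had 130 counts in 35 cells (443 CPM) with Shi-Bi-Man + imiquimod and 18 counts in 12 cells (99.9 CPM) with imiquimod, a log2 ratio of 2.12 (1.43 to 2.95). Oca2, the melanosomal anion channel whose loss causes albinism, had 97 counts in 20 cells and 5 counts in 2 cells, or 331 and 27.8 CPM, a log2 ratio of 3.44 (2.30 to 5.23). Trpm1, a melanocyte channel first known as melastatin, had 159 counts in 40 cells and 13 counts in 9 cells, or 542 and 72.2 CPM, a log2 ratio of 2.86 (2.09 to 3.85). Atp7a, which loads copper onto tyrosinase, had 21 counts in 13 cells with Shi-Bi-Man + imiquimod and 0 with imiquimod, at least 4.30-fold higher. Cd63, which sorts cargo in the melanosome and was chosen after its values were seen, had 1466 and 1499 CPM in these sums. It differed least of the measured members there, but was lower in keratin-low cells (-0.67, -0.96 to -0.35). In keratin-high cells it was also lower (-1.24, -1.73 to -0.78), and in marker-clean cells its interval spanned 0 (-0.19, -0.58 to 0.23).

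In keratin-low cells the list differed less, and a few genes kept a large ratio. Per 10000 counts of a cell, the summed list had a median of 54.9 in keratin-low cells with Shi-Bi-Man + imiquimod and 56.3 with imiquimod. In keratin-high cells the medians were 8.79 and 10.8. The keratin-low median log2 ratio over 6 measured members was 0.51, with 3 higher and 1 lower. Trpm1 had 152 and 7 counts there, or 873 and 202 CPM, a log2 ratio of 2.01 (1.03 to 3.45). Oca2 had 94 and 5 counts, or 540 and 144 CPM (1.77, 0.63 to 3.56). Slc24a5 had 123 and 14 counts, or 706 and 405 CPM (0.76, 0.0024 to 1.72). The interval of Slc24a5 reached down to near 0, while those of Trpm1 and Oca2 lay above 0. However, the imiquimod counts of Trpm1 and Oca2 came from 4 and 2 cells, and the intervals treat counts of 1 cell as independent. The genes of the rule also set which cells count as keratin-low, so their values there are a description. Mlana had 4455 and 1849 CPM in keratin-low cells (1.26, 0.90 to 1.66) and Tyr 2050 and 1098 CPM (0.88, 0.42 to 1.42). Pmel had 6212 and 4768 CPM there (0.38, 0.14 to 0.63). Dct had 16735 and 16211 CPM (0.04, -0.08 to 0.18) and Tyrp1 4145 and 3525 CPM (0.23, -0.05 to 0.52), with intervals that spanned 0. In marker-clean cells Trpm1 had 84 and 5 counts (log2 ratio 2.03) and Oca2 85 and 1 counts (log2 ratio 3.92). Their imiquimod counts there lay in 2 and 1 cells. Mlana had 447 and 38 counts in marker-clean cells, a log2 ratio of 1.62.

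Shares of cells were compared after thinning all melanocytes to 500 counts. Trpm1 was then present in 27.8% of 72 cells with Shi-Bi-Man + imiquimod and 1.89% of 53 cells with imiquimod, against 55.6% and 17.0% before thinning. Oca2 was present in 13.9% and 1.89%, against 27.8% and 3.77% before thinning. Tyr, as a description, was present in 48.6% and 18.9%. Of T cells thinned alike, 0 of 382 with Shi-Bi-Man + imiquimod held Trpm1, Oca2 or Tyr, which allows for each gene up to 0.785% of cells with a count at that depth (3 counts of the total), and with imiquimod each was in at most 0.0876% of 2282. The imiquimod shares of Trpm1 and Oca2 rest on 1 cell each.

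Genes that build melanosomes and move them along the cytoskeleton were also higher in the sums, but near the level of all genes in keratin-low cells. Of 10 measured members of 23, 8 were higher in summed melanocytes and 0 lower, with a median log2 ratio of 1.28, against 0.07 in other cells. Myo5a, the myosin motor that carries melanosomes, had 89 and 12 counts, or 303 and 66.6 CPM (2.14, 1.31 to 3.19). Mlph, which links it to Rab27a on the melanosome, had 21 and 2 counts (2.40, 0.66 to 5.83), and Rab27a had 22 and 5 counts (1.33). Ap3b1, a subunit of the AP-3 sorting adaptor, had 26 and 4 counts (1.85, 0.47 to 3.98). In keratin-low cells 2 of 8 measured members were higher and the median was 0.17, against 33.7% and 0.18 for all genes there. Myo5a was at 448 and 202 CPM (1.06, 0.04 to 2.51) and Rab27a at 97.6 and 86.7 CPM (-0.01).

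Lineage transcription factors and receptors were also higher in the sums, and in the keratin-low cells the transcription factors were mostly level. Of 7 measured transcription factors of 11, 5 were higher and 1 lower, with a median log2 ratio of 1.06. Sox5 had 235 and 49.95 CPM with Shi-Bi-Man + imiquimod and with imiquimod (2.17, 1.23 to 3.42), Sox10 had 109 and 27.8 CPM (1.86, 0.60 to 3.69), Zeb2, a factor of melanocyte differentiation, had 157 and 55.5 CPM (1.44) and Pax3 had 201 and 94.4 CPM (1.06, 0.29 to 1.96). In keratin-low cells 2 of 6 measured members were higher and the median was 0.06, against 33.7% and 0.18 for all genes there. Sox10 had 161 and 144 CPM there, Mitf 476 and 462 CPM and Pax3 316 and 289 CPM, all with intervals that spanned 0. Of 6 measured receptors of 9, 4 were higher, 1 lower and the median was 1.01. Kit, the receptor of stem cell factor, had 242 and 83.3 CPM (1.5, 0.72 to 2.45), and Ednrb, the endothelin B receptor, had 436 and 172 CPM (1.33, 0.77 to 1.96). Met, the receptor of hepatocyte growth factor, had 113 and 33.3 CPM (1.66, 0.48 to 3.30), and Fgfr1, a fibroblast growth factor receptor, had 40.9 and 122 CPM (-1.55, -2.73 to -0.50). In keratin-low cells 3 of 4 measured receptors were higher, with a median of 0.64 with a gene at 0 set to its bound. Kit had 390 and 202 CPM there (0.86, -0.17 to 2.32) and Ednrb 677 and 433 CPM (0.60, -0.14 to 1.53), both with intervals that spanned 0, and Met had 24 and 0 counts. Fgfr1 had 4 and 2 counts in keratin-low cells (-1.48, -4.13 to 2.14), and 8 and 20 counts in keratin-high cells. Mc1r, the melanocortin receptor that sets the kind of pigment and was chosen after its values were seen, had 0 counts in melanocytes of both libraries.

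Cell cycle genes were higher with Shi-Bi-Man + imiquimod in summed melanocytes, keratin-high barcodes included, and not in other cells. Of 30 genes, 27 were measured, 26 were at least 1.5-fold higher and 0 lower, with a median log2 ratio of 1.77, against 0.10 for the same genes in other cells. The summed list had 2328 counts (7938 CPM) with Shi-Bi-Man + imiquimod and 433 counts (2403 CPM) with imiquimod, a log2 ratio of 1.72 (1.58 to 1.88). Top2a, the topoisomerase of dividing cells, had 190 counts in 24 cells and 11 counts in 6 cells, or 648 and 61.1 CPM (3.35, 2.54 to 4.43). Birc5, which encodes survivin of the chromosomal passenger complex, had 45 and 3 counts (3.0, 1.56 to 5.53). Ccna2, which encodes cyclin A2, had 24 and 1 counts (3.33, 1.27 to 9.24). Plk1, a mitotic kinase, had 31 counts in 13 cells and 0 counts, at least 6.35-fold higher. Ccnd2, a G1 cyclin, had 433 and 49.95 CPM (3.04, 2.15 to 4.28).

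These counts came from a subset of cells. At least 5 counts of the list were present in 38 of 72 melanocytes with Shi-Bi-Man + imiquimod and 20 of 53 with imiquimod. All 20 of those with imiquimod also held at least 10 keratinocyte counts, against 23 of the 38 with Shi-Bi-Man + imiquimod. Among keratin-low cells the numbers were 26 of 57 and 2 of 30, at median depths of 1570 and 669.5 counts. The summed list in keratin-low cells was 7681 CPM with Shi-Bi-Man + imiquimod and 1560 CPM with imiquimod, a log2 ratio of 2.29 (1.91 to 2.72). Of 19 measured members 16 were higher, 0 lower and the median was 1.42 when the 7 genes at 0 with imiquimod were set to their bounds. Per cell, however, the medians were 17.4 and 15.5 counts per 10000, and the highest cells reached 173 and 51.7. The groups thus overlapped over most cells and parted at the top. In keratin-high cells the medians were 72.1 and 16.1 counts per 10000, and the summed list was 8313 and 2604 CPM. The keratin-low Shi-Bi-Man + imiquimod cells with most list counts, 187 and 185, also held 90 and 51 keratinocyte counts. Whether these list counts came from melanocytes was not tested. In marker-clean cells the summed list was 2691 CPM (196 counts) and 1553 CPM (30 counts), a log2 ratio of 0.77 (0.23 to 1.40). After thinning to 500 counts, Mki67, the proliferation marker Ki-67 (chosen after its values were seen), was present in 15.3% of melanocytes with Shi-Bi-Man + imiquimod and 3.77% with imiquimod, against 3.40% and 6.88% of T cells. Top2a was present in 12.5% and in 0 of 53, which allows up to 5.66% of cells with a count at that depth, against 5.76% and 6.88% of T cells. Before thinning, Top2a was present in 33.3% and 11.3% of melanocytes, so the 0 does not limit how many cells express it.

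Immediate early and heat shock genes are switched on by cells within minutes of a stimulus or stress. As a list they were lower with Shi-Bi-Man + imiquimod in every subset of melanocytes examined, but the heat shock genes were mixed. All 22 genes were measured, 19 were at least 1.5-fold lower and 0 higher, with a median log2 ratio of -1.27. In other cells the same genes had a median of 0.23. The summed list was 14024 CPM with Shi-Bi-Man + imiquimod and 31337 CPM with imiquimod, a log2 ratio of -1.16 (-1.22 to -1.10). Atf3, a stress-induced transcription factor, had 702 and 2520 CPM (-1.84, -2.09 to -1.6). Nr4a1, an early-induced nuclear receptor, had 798 CPM in 41 of 72 cells and 2870 CPM in 49 of 53 cells (-1.84, -2.08 to -1.62). Socs3, a brake on cytokine signalling, had 71.6 and 372 CPM (-2.35, -3.16 to -1.65), and Klf2, a Krüppel-like transcription factor, had 47.7 and 272 CPM (-2.47, -3.48 to -1.63). Fos, a subunit of the AP-1 transcription factor chosen after its values were seen, had 1054 and 3680 CPM (-1.80, -2.0 to -1.61). The genes that were not lower by 1.5-fold were Hspa1a, Hspa8 and Hsp90aa1, heat shock chaperones at -0.02, 0.08 and 0.42. In marker-clean cells they were at -0.16, -0.06 and 0.19, and the heat shock gene Hspa1b was at 0.24. The heat shock gene Dnajb1 was at -1.30 there, with an interval that spanned 0 (-2.76 to 0.34). In keratin-high cells Hspa1b and Dnajb1 were at -0.57 (-1.10 to -0.06) and -0.78 (-1.18 to -0.39).

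The list was lower in both the keratin-low and the keratin-high barcodes, although the keratin-high ones held different keratinocyte genes in the 2 libraries. In keratin-low cells the list had a median of 109.9 counts per 10000 with Shi-Bi-Man + imiquimod and 273 with imiquimod, and in keratin-high cells 153 and 338. In marker-clean cells the medians were 79.9 and 291 counts per 10000, with ranges of 0 to 454 and 45.4 to 611 that overlapped. In keratin-low cells 15 of 21 measured members were lower and 1 was higher. The summed log2 ratio was -1.09 (-1.20 to -0.97) in keratin-low and -1.54 (-1.71 to -1.37) in marker-clean cells. Atf3 was at -1.65 and -3.0 and Nr4a1 at -1.71 and -2.72 in these sets. After thinning to 500 counts, Fos was present in 30.6% of melanocytes with Shi-Bi-Man + imiquimod and 62.3% with imiquimod, against 41.6% and 40.1% of T cells. The ribosomal protein share differed in the same direction, at 10.6% and 15.6%, and its part in the result was not tested.

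**Figure D3:**
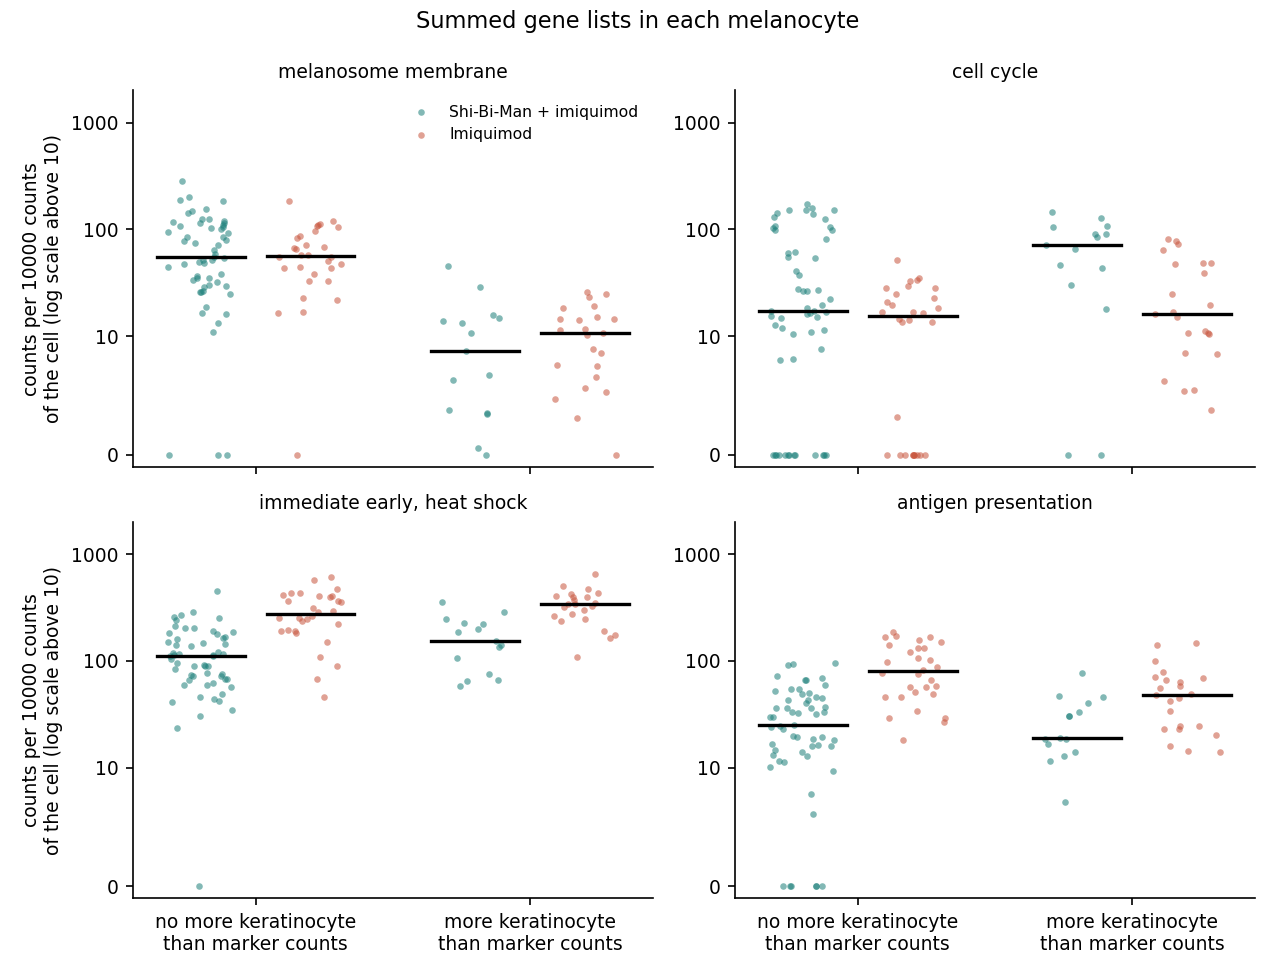
Counts of 4 gene lists per 10000 counts of each melanocyte, linear up to 10 and logarithmic above, for cells with no more keratinocyte than marker counts (left in each panel, 57 Shi-Bi-Man + imiquimod and 30 Imiquimod cells) and with more (right, 15 and 23 cells). Points are cells and black lines medians; immediate early and antigen presentation medians are lower with Shi-Bi-Man + imiquimod in both sets of barcodes, and melanosome medians are close.

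Antigen presentation genes were lower with Shi-Bi-Man + imiquimod in melanocytes. Other cells differed mainly in the class II genes. Of 8 measured members of 15, 7 were at least 1.5-fold lower and 0 higher, with a median log2 ratio of -1.20, against -1.17 in other cells. H2-K1, a class I heavy chain, had 351 CPM in 41 of 72 cells and 827 CPM in 32 of 53 cells (-1.23, -1.61 to -0.86). Psmb8, a subunit of the immunoproteasome, had 40.9 and 117 CPM (-1.49, -2.67 to -0.42). H2-Aa and Cd74, which belong to class II presentation and are also myeloid markers, had 17.1 and 200 CPM (-3.43) and 177 and 705 CPM (-1.98). In other cells the log2 ratio was -0.18 for H2-K1, against -1.64 for H2-Aa and -1.84 for Cd74. Class I genes, which nearly all nucleated cells express, were also lower in marker-clean melanocytes. There H2-D1 had 82 and 67 counts (-1.62, -2.11 to -1.14) and B2m 98 and 51 counts (-0.98, -1.47 to -0.45), both chosen after their values were seen. H2-K1 had 32 and 15 counts (-0.85, -1.75 to 0.17), with an interval that spanned 0. Per 10000 counts, the list had medians of 29.7 and 82.4 in these cells. In keratin-low cells 4 of 4 measured members were lower, with a median log2 ratio of -1.56. The myeloid list, whose sum was 266 and 1221 CPM over all melanocytes, moved with the class II genes. Myeloid counts ran up to 7 in a melanocyte with Shi-Bi-Man + imiquimod and up to 67 with imiquimod, and their part in the class II values was not tested.

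Targets of NF-kB and IL-17 signalling, which lies downstream of the IL-23 and Th17 axis named in the study's title, were lower as well. Of 8 measured members of 20, 6 were lower and 0 higher, with a median log2 ratio of -1.09, against -0.07 in other cells. Cxcl1, a neutrophil chemokine, had 37.5 and 155 CPM (-2.01, -3.21 to -1.0), and Ccl2, a monocyte chemokine, had 23.9 and 77.7 CPM (-1.65, -3.25 to -0.30). Nfkbiz, which relays IL-17 signals to target genes, had 133 and 350 CPM (-1.39, -2.01 to -0.80), and Icam1, a leukocyte adhesion receptor, had 164 and 372 CPM (-1.18, -1.75 to -0.63). In keratin-low cells 4 of 5 measured members were lower, with a median of -1.59. In keratin-high cells Cxcl1 was at -1.68 (-3.34 to -0.45) and Nfkbiz at -0.96 (-1.77 to -0.24). Ccl2 (-0.99, -3.67 to 0.93) and Icam1 (-0.49, -1.21 to 0.19) had intervals there that spanned 0. Nfkb1, chosen after its values were seen, was higher there (0.82, 0.14 to 1.54). The summed list in marker-clean cells was 783 CPM (57 counts) with Shi-Bi-Man + imiquimod and 3726 CPM (72 counts) with imiquimod (-2.25, -2.78 to -1.73). Cxcl16, the chemokine of the title and chosen for that, had 0 counts with Shi-Bi-Man + imiquimod and 7 counts in 6 cells with imiquimod, at least 3.80-fold lower, and in other cells it had 68.3 and 150.8 CPM. All 7 counts lay in keratin-high cells, and marker-clean cells held 0 in both libraries. Interferon response genes were few: of 26 genes 4 were measured and 3 were lower, led by Ifitm3 with 188 and 710 CPM (-1.91), which had 31 and 13 counts in keratin-low cells (-1.11, -2.05 to -0.02), although Ifitm3 had 10 and 2 counts and a log2 ratio of 0.16 in marker-clean cells. Of 15 cytokine receptors 2 were measured, and both were lower, Il6st with 12 and 16 counts (-1.10, -2.33 to 0.05) and Tnfrsf1a with 18 and 19 counts (-0.78, -1.80 to 0.23), with intervals that spanned 0. In keratin-low cells both fell under the minimum of 20 counts. There Il6st had 7 and 11 counts (-2.95, -4.59 to -1.49) and Tnfrsf1a 7 and 10 counts (-2.82, -4.48 to -1.30), with intervals below 0. In keratin-high cells they were at 0.29 and 0.57, with intervals that spanned 0.

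Feedback genes of MAPK signalling, which the growth factor receptors feed, were lower or level. Of 7 measured members of 12, 4 were lower and 0 higher, with a median log2 ratio of -0.64, against 0.19 in other cells. Phlda1 had 556 and 866 CPM (-0.64, -0.97 to -0.31) and Dusp6, the phosphatase of ERK, had 198 and 322 CPM (-0.70, -1.25 to -0.15). Spry2 and Etv4 had 12 and 10 counts with Shi-Bi-Man + imiquimod and 14 and 11 counts with imiquimod, and their intervals spanned 0. In keratin-low cells 1 of 3 measured members was lower, and Phlda1 had 586 and 925 CPM (-0.67, -1.24 to -0.04).

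Of 6 measured stem cell and neural crest genes of 13, 2 were higher and 2 lower, against 34.1% and 15.2% of all genes. Notch1 had 157 and 99.9 CPM (0.63, -0.16 to 1.52), Tgfbr1 81.8 and 38.8 CPM (1.0, -0.18 to 2.53), Hes1 184 and 411 CPM (-1.15, -1.69 to -0.63) and Sox9 157 and 300 CPM (-0.93, -1.53 to -0.34). Sox9 is also a hair follicle keratinocyte gene, and in keratin-low cells it had 9 counts in 5 cells with Shi-Bi-Man + imiquimod and 0 with imiquimod. Of 14 measured antioxidant genes of 20, 4 were higher and 2 lower, near the shares over all genes of 34.1% and 15.2%. Cat, which encodes catalase, had 27 and 3 counts (2.27, 0.77 to 4.83), Gclm of glutathione synthesis had 38 and 11 counts (1.04, 0.09 to 2.20), and Gpx4 16 and 5 counts (0.88). Mt1, a metallothionein, had 3151 and 5817 CPM (-0.88, -1.01 to -0.76). The log2 ratio of Mt1 was -0.74 (-0.98 to -0.50) in keratin-low cells.

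Of 12 adhesion genes 8 were measured, 4 higher and 1 lower, against 34.1% and 15.2% of all genes. Cdh3, which encodes P-cadherin of the follicle, had 256 and 139 CPM (0.86, 0.21 to 1.6), Cdh1, which encodes E-cadherin, had 215 and 122 CPM (0.79, 0.09 to 1.59), the integrin chain Itgav had 18 and 5 counts (1.05) and the integrin chain Itga6 25 and 25 counts (-0.70). In keratin-low cells Cdh3 had 333 and 144 CPM (1.08, -0.10 to 2.88). Of 11 survival and arrest genes 7 were measured, with 2 higher and 0 lower in the sums, against the same shares. In keratin-low cells 0 were higher and 4 of 5 lower, against 33.7% and 18.9% of all genes there. Mcl1, which protects from apoptosis, had 147 and 94.4 CPM in all melanocytes (0.61, -0.20 to 1.54) and 115 and 231 CPM in keratin-low cells (-1.06, -2.25 to 0.38). Bcl2, which melanocyte stem cells need, had 95.5 and 66.6 CPM (0.49), and 121 and 231 CPM in keratin-low cells (-0.99, -2.17 to 0.45). Trp53 had 160 and 117 CPM (0.44) and Cdkn1b 75.01 and 44.4 CPM (0.70), and every interval of the survival genes named so far spanned 0. The summed list was at -0.95 (-1.36 to -0.50) in keratin-low and -1.07 (-1.64 to -0.47) in marker-clean cells. Cdkn1a, an arrest gene chosen after its values were seen, had 14 and 19 counts in marker-clean cells (-2.34, -3.46 to -1.28). In keratin-high cells it had 91 and 86 counts (0.37, -0.07 to 0.81). Of 12 ligands for melanocyte receptors, Kitl, the ligand of Kit, was the measured one, with 109 and 133 CPM in melanocytes (-0.30), 20 and 2 counts in keratin-low cells (0.70, -1.05 to 4.13), and 86.2 and 48.2 CPM in keratinocytes.

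**Figure D4:**
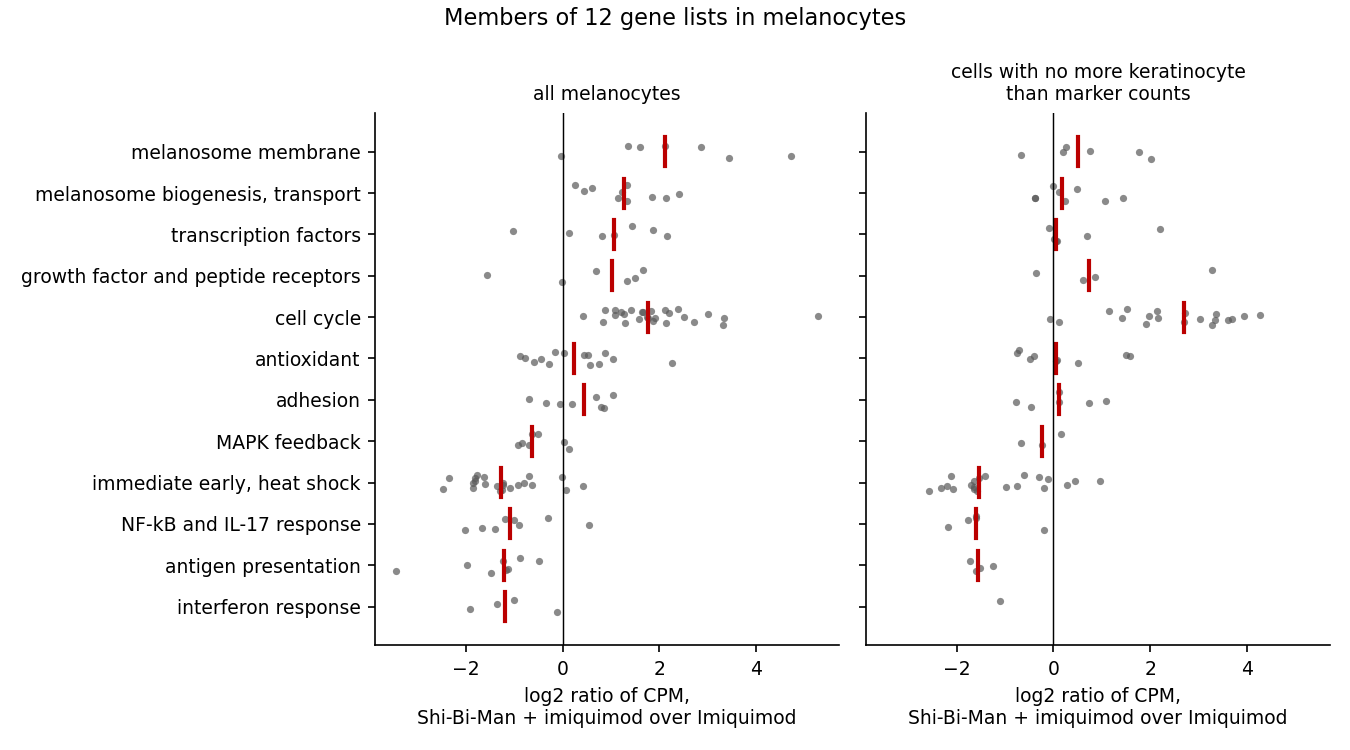
Log2 ratio of CPM, Shi-Bi-Man + imiquimod over Imiquimod, for each measured member (points) of 12 gene lists, in all melanocytes (left) and in cells with no more keratinocyte than marker counts (right); red bars are medians of lists with at least 3 measured members. Genes at 0 in 1 library are drawn with 0.5 added to each count and are not bounds, so the right cell cycle median is 2.70 here and 1.42 at the bounds; the melanosome median is 2.12 on the left and 0.51 on the right, and the immediate early median -1.27 and -1.54.

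Among the 8 highest genes of all were Oca2, Trpm1, Mlana, Plk1 and Ccnd2, given above, and the first of them was Fmn1, which encodes formin 1, an actin-assembling protein. It had 121 counts in 29 cells (413 CPM) with Shi-Bi-Man + imiquimod and 5 counts in 5 cells (27.8 CPM) with imiquimod, a log2 ratio of 3.76 (2.63 to 5.54), while in other cells it was level at 16.3 and 16.5 CPM. In keratin-low cells Fmn1 had 118 and 3 counts (2.75, 1.38 to 5.26). Cpne4, a copine, had 61 counts in 26 cells and 3 counts in 3 cells (3.43, 2.03 to 5.96), and in keratin-low cells 61 and 1 counts (3.03, 1.07 to 8.93). Hmgn2, a chromatin protein that is abundant in dividing cells, had 106 and 8 counts (2.94, 1.99 to 4.27). Fmn1 spans chr2:113327736-113716767 and Cpne4 chr9:104547286-105034544, both on the plus strand and protein-coding in the GENCODE vM21 annotation of GRCm38.

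Of the lowest genes outside the lists, several held most of their counts in keratin-high cells. Abi3bp, an extracellular matrix protein, had 16 and 108 counts (-3.42, -4.32 to -2.69), of which 5 and 4 were in keratin-low cells. Krt15, a keratin of basal and bulge keratinocytes, had 68 and 258 counts (-2.62, -3.03 to -2.24), of which 14 and 8 were in keratin-low cells. Other keratinocyte genes differed the other way, with 498 and 24 counts of Krt10 (3.64) and 264 and 21 counts of Krt1 (2.92), both chosen after their values were seen. In keratin-low cells Krt10 had 76 and 2 counts (2.60), while Krt1 had 37 and 10 counts (-0.50, -1.48 to 0.73). Hbegf, an EGF receptor ligand, had 17 and 66 counts (-2.63), and Cpne8 11 and 41 counts (-2.55), with at most 3 counts of either in the keratin-low cells of a library. Crip1, a LIM domain protein, was lower in both sets, with 224 and 592 counts in all melanocytes (-2.10, -2.33 to -1.88) and 70 and 95 counts in keratin-low cells (-2.77, -3.24 to -2.31), and with 24 and 22 counts in marker-clean cells (-1.79, -2.69 to -0.89). Nupr1, a stress-induced chromatin protein, had 21 and 68 counts (-2.37) and in keratin-low cells 12 and 13 counts (-2.44, -3.71 to -1.20), but 5 and 2 counts in marker-clean cells (-0.78, -3.2 to 2.80).

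Compared with all other cells of the same libraries, the summed melanocytes, keratin-high barcodes included, differed in the cell cycle and immediate early lists. The same lists in other cells had summed log2 ratios of -0.09 and 0.19, opposite in sign to 1.72 and -1.16 in melanocytes. The antigen presentation list as a sum was lower in both, at -1.14 in melanocytes and -1.10 in other cells. The difference between melanocytes and other cells was not tested, because each group held 1 library, and other cells are a mixture whose makeup differed between the libraries.

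**Figure D5:**
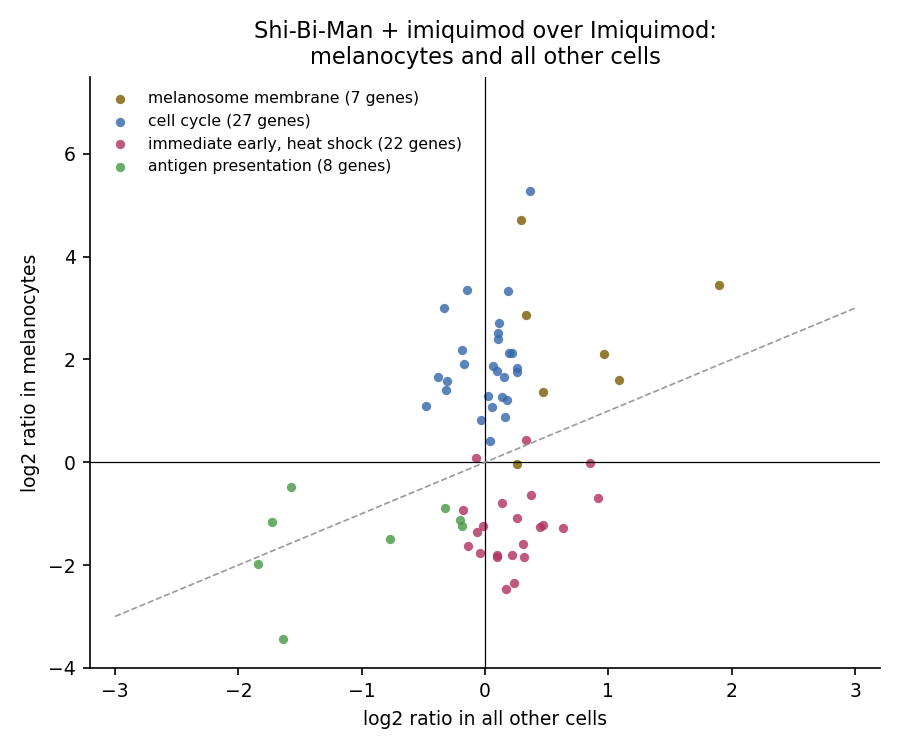
Log2 ratio, Shi-Bi-Man + imiquimod over Imiquimod, in melanocytes (vertical axis) against all other cells (horizontal axis) for the measured members of 4 gene lists; the dashed line marks equal ratios, and Plk1 and Atp7a, at 0 with Imiquimod, are drawn with 0.5 added to each count and are no bounds. Cell cycle genes lie above the horizontal line at ratios near 0 in other cells, 19 of 22 immediate early and heat shock genes are at least 1.5-fold lower in melanocytes, and the antigen presentation genes lie in the lower left.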

How the data were processed

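RNA of dorsal skin cells was measured in 2 libraries, grouped by the treatment in the labels. Each deposited matrix holds raw counts as whole numbers, 1 per gene and barcode according to its header, and no barcode had under 500. Per the submitters' processing notes, mm10 and GRCm38 were used. Which aligner, counter and cell-calling rule were applied, and whether molecules were collapsed, is not given in the sources used here. Entries sharing a symbol (231 of 55471) were summed.

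Counts were summed over melanocytes per library, 293284 and 180169 in all, and given as CPM. Log2 ratios had 0.5 added to each count and exact conditional binomial intervals, and shares had Clopper-Pearson intervals, all at a confidence level of 95%. A gene needed 20 counts over both libraries, and higher or lower means at least 1.5-fold. A gene at 0 in 1 library was set against a floor of 3 counts over the group. With 1 library per group no test was run. Cells were thinned to 500 counts for shares of cells. No doublet caller was used. Instead, cells with marker counts of other types were left out as alternatives. Named genes were the 5 markers, of each list the 4 measured genes with the largest absolute log2 ratio, the 8 highest and 8 lowest genes and the 15 genes highest over other cells. The highest and lowest were ranked by the interval bound nearest 0, among genes with at least 30 counts, at most 25% of the counts of the higher library in 1 cell and at least the level of other cells there. Mitochondrial, ribosomal protein, haemoglobin and unnamed genes were left out of that ranking. The members and the lists were chosen with earlier results of these data known. Promoters came from a RefSeq table of GRCm38.p6, cut to the 250 bases before the start, and gene positions from GENCODE vM21, which held 99.4% of the gene entries. The computation was tested on simulated data. Python 3.11.15, numpy 2.4.6, scipy 1.17.1, pandas 2.3.3, matplotlib 3.10.9 and, for scaling factors, R 4.3.3 with edgeR 4.0.16 were used. Alternatives changed the selection rule, the cell filters, the scaling, the count minimum, the added constant, the averaging, the background and the fold.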

Additional observations from a re-analysis of the deposited data

Results flagged for a closer look

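For 11 values, melanocytes and all other cells differed in opposite directions between the libraries. None of these differences was tested, because each group held 1 library. Each pair below is a log2 ratio of Shi-Bi-Man + imiquimod over imiquimod, first in melanocytes and then in all other cells. Of the summed lists, cell cycle genes had 1.72 and -0.09, immediate early and heat shock genes -1.16 and 0.19, MAPK feedback genes -0.51 and 0.37, and stem cell and neural crest genes -0.24 and 0.14. The keratinocyte list had -0.47 in melanocytes and 0.87 in other cells, and the fibroblast list -1.73 and 1.17. The members of the keratinocyte list were split in melanocytes, with 3 of 10 at least 1.5-fold higher and 5 lower. Kit had 1.5 and -0.79, and Ednrb 1.33 and -0.91. Fgfr1 had -1.55 and 0.72, Cxcl10 -1.01 and 0.64, and Krt15 -2.62 and 0.99. With imiquimod, 20 Fgfr1 counts lay in keratin-high and 2 in keratin-low barcodes. The keratinocyte and fibroblast lists mark other cell types, and their counts in melanocyte barcodes sit in a minority of cells, 28 of 72 and 24 of 53 with at least 10 keratinocyte counts and 15 and 5 with at least 10 fibroblast counts.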

How the results depend on the processing

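In marker-clean cells, 207 of 787 genes were higher (26.3%) and 163 lower (20.7%), the melanosome membrane median was 0.61 and the immediate early median -1.83. In keratin-low cells, a set chosen after seeing the data, 682 of 2021 were higher and 381 lower, and the melanosome median was 0.51. Both sets hold fewer cells and measure fewer genes. Counts of higher and lower genes were 484 and 252 at a minimum of 50 counts, 3470 and 1862 at 5 counts, and 808 and 309 at a 2-fold threshold, and 1015 were lower by a mean over cells. Thinning before the rule, also added later, gave a share ratio of 1.48. Log2 ratios past 1.5-fold that changed sign in marker-clean cells were Rab27a -0.078, Sox10 -0.62, Pax3 -0.49, Sox9 1.26, Ifitm3 0.16, Cxcl10 1.26, Gpx4 -0.54, Cdh1 -0.56, Cdkn1b -0.040, Mcl1 -1.29, Ptgds -0.18, Syngr1 -0.59 and Mitf -0.33. In keratin-low cells they were Rab27a -0.0096, Tgfbr1 -0.0096, Sox9 1.92, Notch1 -0.55, Gpx4 -0.0096, Cdkn1b -0.75, Mcl1 -1.06, Ptgds -0.40, Syngr1 -0.52, Gstp1 -0.033 and Ptn 1.04. By a mean over cells they were Cxcl10 0.52, Ptgds -0.034 and Syngr1 -0.28, and with Ptprc-positive cells kept Cat was at -0.39. These ratios have 0.5 added to each count and are no bounds where a gene is at 0 in 1 library. The cause of these reversals was not tested. Of 1374 values for 87 genes, 1225 moved by less than their counting interval. In the settings run, the cell cycle median lay between 0.77 (in marker-clean cells, from 4 measured genes; 0.41 there over the 27 genes measured in all melanocytes) and 2.70 (in keratin-low cells, where 7 of 19 genes were at 0 with imiquimod and the median was 1.42 at their bounds), and the immediate early median between -1.83 and -1.16. Depth limits single genes in the 25 marker-clean and the 30 keratin-low imiquimod cells. No paired analysis was possible because each group held 1 library and replicate numbers were given in accession order.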
